A study of Homo sapiens with 24 samples.

Results

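The expression profile of L1236 cells kept under control siRNA was described from 12 of the 24 arrays of the study, namely every array whose title names a non-targeting siRNA (siNT). L1236 is an established cell line of classical Hodgkin lymphoma that derives from B cells, so all arrays describe 1 line. The other 12 arrays carry knockdowns of NFKB1 with RELA (experiment 1) or of NFKB2 with RELB (experiment 2) and were not used. In each experiment the control cells received 2 non-targeting sequences, called sequence 1 and sequence 2, in 3 biological replicates, which gave 6 control arrays per experiment. The control cells were otherwise handled like the knockdown cells: Accell siRNA entered the cells passively in a delivery medium with 1% serum, and medium with 10% serum was restored 1 day before harvest. The concentration and days of exposure of the control siRNAs are not stated in the sources used here. The cells are thus unperturbed in their NF-κB genes but not untreated, and no array of cells without siRNA was analysed here.

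Hodgkin cells are malignant germinal centre B cells that have lost much of the B cell program, such as the B cell receptor complex and CD20, while keeping features of antigen-presenting cells. They depend on NF-κB, a family of transcription factor dimers that leave the cytoplasm when inhibitors of the IκB family are degraded, and on cytokine signals through JAK kinases and STAT factors. They secrete chemokines and cytokines that draw T cells and other leukocytes into the tumour, and they are recognised by surface CD30 (TNFRSF8) and by the chemokines CCL17 and CCL22.

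RNA was hybridised to Affymetrix Human Gene 1.0 ST arrays, whose values are log2 signals of transcript clusters, each a group of probes along 1 transcript locus. Of 33297 clusters, 19460 carry 1 gene symbol, for 18417 genes, and these were ranked within each experiment by the mean log2 signal over its 6 control arrays. The percentile of a cluster is the share of the 19460 clusters at or below it. Ranks order array signal, which also depends on the probes of a cluster, and not the amount of mRNA. The experiments have no scan batch in common, and the median signal of all 33297 clusters was 6.94 to 6.99 on the arrays of experiment 1 and 7.40 to 7.41 on those of experiment 2. Signals were therefore not compared between experiments, and ranks were compared as a description without a test. The arrays of experiment 1 correlated at 0.991 to 0.997 with each other, those of experiment 2 at 0.995 to 0.998, and arrays of different experiments at 0.982 to 0.990 (Pearson, across clusters). The array of sequence 2 in replicate 2 of experiment 1 stood apart most. On it 47 clusters lay at least 1.5-fold away from the mean of the other 5 arrays. The count was 18 and 31 on the sequence 2 arrays of replicates 1 and 3. On the sequence 1 arrays of replicates 1, 2 and 3 it was lower, at 7, 4 and 7. Interferon-stimulated genes, which the array that stood apart touches most, are given with and without that array.

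The order of the genes was nearly the same in both experiments, and clusters of GAPDH, RPS28, FAF2, PTMA, RPL18 and HSPA8 headed it. The Spearman correlation of the ranks was 0.992 across the 19460 clusters, the 100 highest clusters of each experiment had 88 in common (88.0% of either list), and the 1000 highest had 892 in common (89.2%). The median change of percentile was 1.98 points, and 85.3% of clusters lay within 5 points. GAPDH, the glycolytic enzyme often used as a reference, ranked 1 in experiment 1 and 2 in experiment 2. Its log2 signal had a lowest, median and highest value of 13.82, 13.85 and 13.90 on the 6 arrays of experiment 1, and of 13.86, 13.88 and 13.91 in experiment 2. The other 3 of the first 4 places in each experiment belonged to clusters of RPS28, a protein of the small ribosomal subunit.

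Next in both experiments came a cluster named for FAF2, at rank 5, whereas the other FAF2 cluster sat at the percentiles 95.4 and 94.5. A cluster of PLCG2, a phospholipase of B cell receptor signalling, ranked 17 and 11, and the other PLCG2 cluster sat at the percentiles 54.9 and 45.9. High places of a single cluster thus did not always carry over to the gene's other cluster. By mean percentile over both experiments, 367 of the 769 genes with more than 1 cluster had all clusters within 5 points. In 165 of them clusters lay more than 25 points apart. PTMA, a small acidic nuclear protein, ranked 6 and 7, RPL18 of the large ribosomal subunit 7 and 6, and the chaperone HSPA8 8 and 9. Clusters of the ribosomal genes, of PTMA, of EEF1A1 and of TUBB share probes with pseudogenes or near-identical copies, so their source within the family is uncertain. The 3 TUBB clusters among the highest 20 even held identical values.

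**Figure D1:**
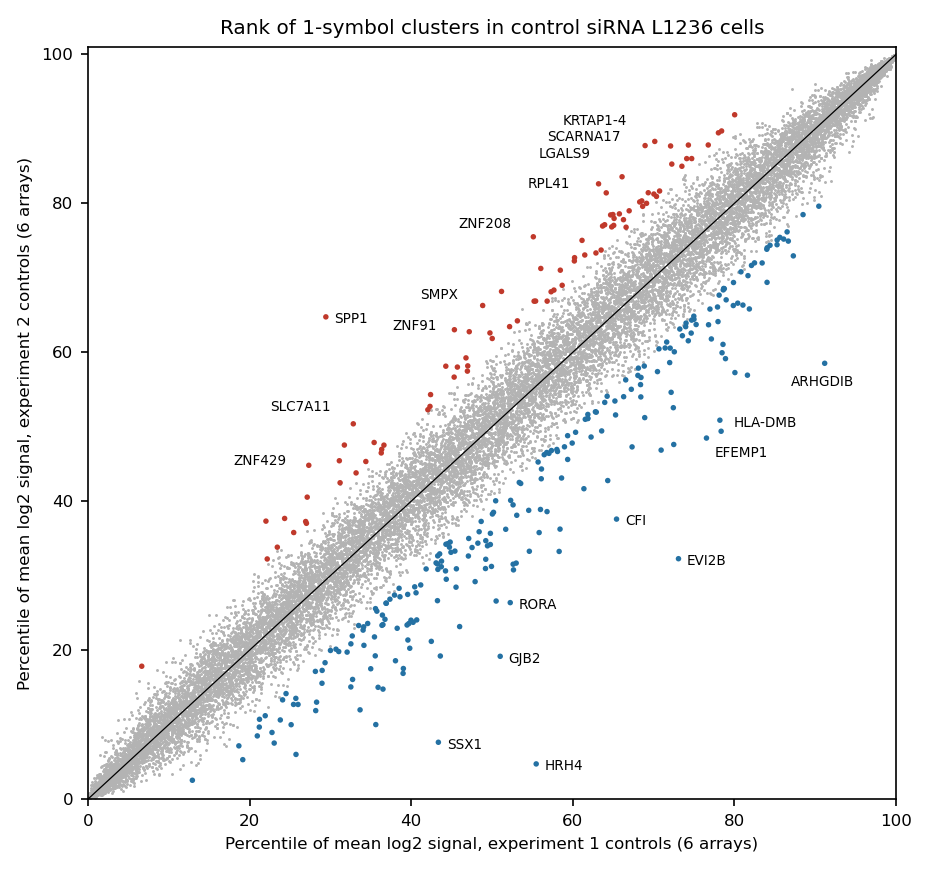
Percentile of each of the 19460 clusters in experiment 1 (horizontal axis) against experiment 2 (vertical axis), from the mean log2 signal over 6 control arrays each. Points lie along the diagonal (Spearman 0.992), and the labelled clusters away from it, such as HRH4 and EVI2B below and SPP1 above, are among those whose arrays did not overlap between the experiments.

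A level of background signal was taken from 360 clusters of olfactory receptor genes, sensory receptors of the nose that lymphoid cells are not known to need. Their 95th percentile, used here as a floor, was 6.40 in experiment 1 and 6.80 in experiment 2, against medians of 7.60 and 7.95 over the 19460 clusters. Above the floor lay 13467 clusters (69.2%) in experiment 1 and 13828 (71.1%) in experiment 2, of which 13302 were the same clusters. On single arrays the count ran from 13418 to 13762 and from 13641 to 14020. The floor is not strict, since 10 and 14 of 33 clusters for genes of other tissues, such as liver or testis genes, also passed it. Among the 1000 clusters with the highest mean percentile over both experiments, 959 were protein-coding, 15 were snoRNAs and 12 were snRNAs.

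Genes listed as Hodgkin cell markers stood high, in a list drawn up with earlier results of these data known. In this and all other gene lists, a gene with several clusters is given by its cluster with the highest mean percentile over both experiments. Its other clusters can lie lower. The 18417 genes in all were counted in the same way. All 21 of the 21 measured Hodgkin cell markers were above the floor in both experiments, against 12573 of the 18417 genes, and their median percentile was 90.1 in experiment 1 and 92.9 in experiment 2, against 50.1 for all genes in both. IRF4, a factor of activated B cells and plasma cells, had log2 signals of 12.30, 12.42 and 12.48 (lowest, median and highest of 6) in experiment 1 and 12.46, 12.52 and 12.56 in experiment 2, at the ranks 202 and 185. IL13RA1, a chain of the IL-13 receptor, lay at 98.9 and 98.8, and the AP-1 family factor BATF3 at 97.4 and 97.5. CD274 and PDCD1LG2 encode the checkpoint ligands PD-L1 and PD-L2, at 97.3 and 95.1, and at 95.6 and 96.2. CCL22, a chemokine for T cells with the receptor CCR4, had signals of 10.25, 10.58 and 10.71 in experiment 1 and 10.38, 10.60 and 10.94 in experiment 2 (percentiles 90.1 and 90.7). Its partner CCL17 was lower, at 72.0 and 73.2, and TNFRSF8, which encodes CD30, lay at 74.3 and 71.1. TRAF1, an adaptor of TNF receptors, was the lowest member at 35.5 in both experiments, with signals of 6.58 to 6.84 and 7.07 to 7.30, just above the floor of each. The remaining members ran from CSF1R (52.6 and 44.0) to LGALS1 (97.4 and 98.4).

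**Figure D2:**
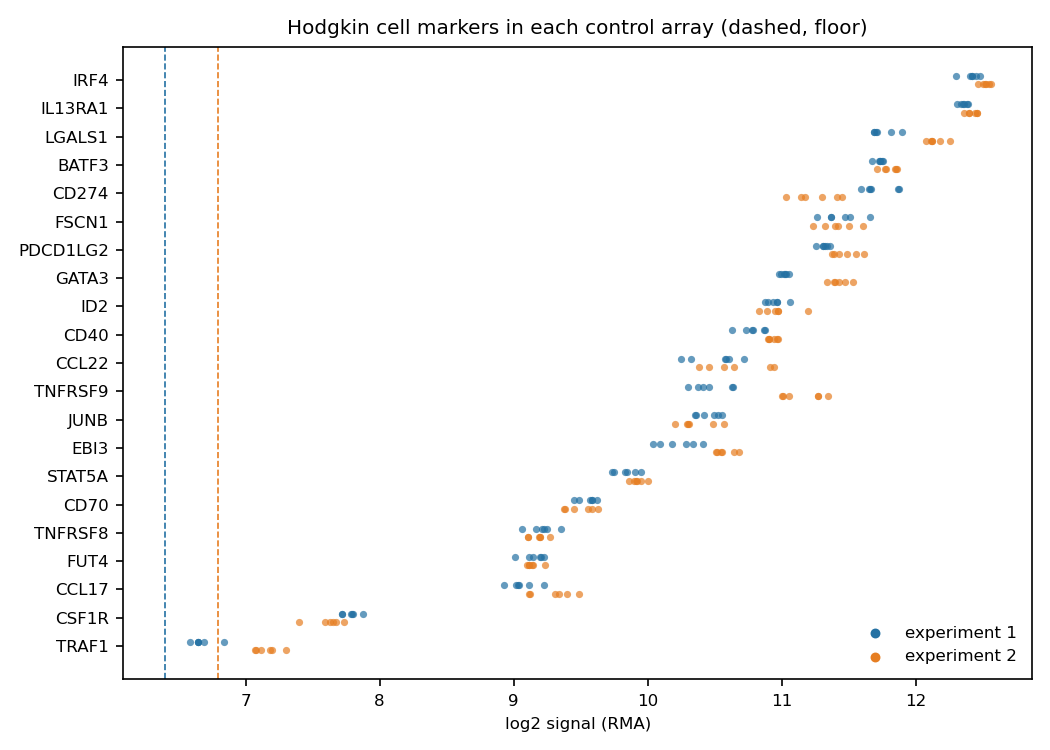
Log2 signal of the Hodgkin cell markers on each control array, with experiments 1 and 2 drawn side by side, points for arrays and a dashed line at the floor set from olfactory receptor clusters. IRF4 and IL13RA1 lie near the top of the scale and TRAF1 just above the floor.

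B cell genes ranged widely. Of 22 measured, 15 were above the floor in both experiments, a share like that of all genes (12573 of 18417), and their median percentile was 42.3 and 39.7. FCER2, which encodes the low-affinity IgE receptor CD23, stood at 99.3 and 99.2, the tetraspanin CD37 at 96.0 and 93.7, and PAX5, the factor that maintains B cell identity, at 92.9 and 93.0 with signals of 10.80 to 10.97 and 10.83 to 11.03. The signal chains of the B cell receptor were low: CD79A lay at 41.3 and 39.9 and CD79B at 40.1 and 37.8. MS4A1, which encodes CD20, had signals of 4.03, 4.39 and 4.70 in experiment 1 and 4.65, 4.89 and 4.90 in experiment 2, below the floor on all 12 arrays. BTK, the kinase downstream of the receptor, was below the floor too (signals of 4.86 to 5.22 and 5.42 to 5.70). Germinal centre genes had a median percentile of 52.8 and 53.5, with 8 of 13 above the floor in both, and plasma cell genes 53.3 and 55.1, with 8 of 12. Among the latter IRF4 and XBP1 (97.1 and 95.3), both factors of secretory cells, were high, whereas CD38 (signals of 5.06 to 5.25 and 5.68 to 5.94) and the immunoglobulin joining chain JCHAIN (5.08 to 5.25 and 4.99 to 5.58) were below the floor.

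Markers of other cell types were split. Among T and NK cell markers 9 of 18 were above the floor in both experiments, against 12573 of 18417 genes, with a median percentile of 31.9 and 30.6. The coreceptor CD4 was among the high ones, at 81.6 and 56.9, whereas the T cell receptor chain CD3E had signals of 5.30 to 5.84 and 6.08 to 6.29, below the floor on every array. Of 11 myeloid markers 4 were above it (median percentiles 26.3 and 27.3), and the monocyte and granulocyte gene LYZ lay at 3.8 and 4.6. Stromal and epithelial markers had 8 of 16 above the floor, among them PECAM1, which encodes CD31 and is also carried by leukocytes, at 98.8 and 97.9. The pan-leukocyte list had 13 of 15 above the floor, with the actin regulator CORO1A at 99.7 and 99.4 and LCP1 at 99.6 and 99.5. Lineage-inappropriate factors of Hodgkin cells had 13 of 14 above the floor, including the T cell factor GATA3 (94.0 and 96.0), the B cell antagonist ID2 (93.6 and 93.1) and NOTCH2 (95.1 and 94.4), while NOTCH1 lay at 38.3 and 40.3.

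**Figure D3:**
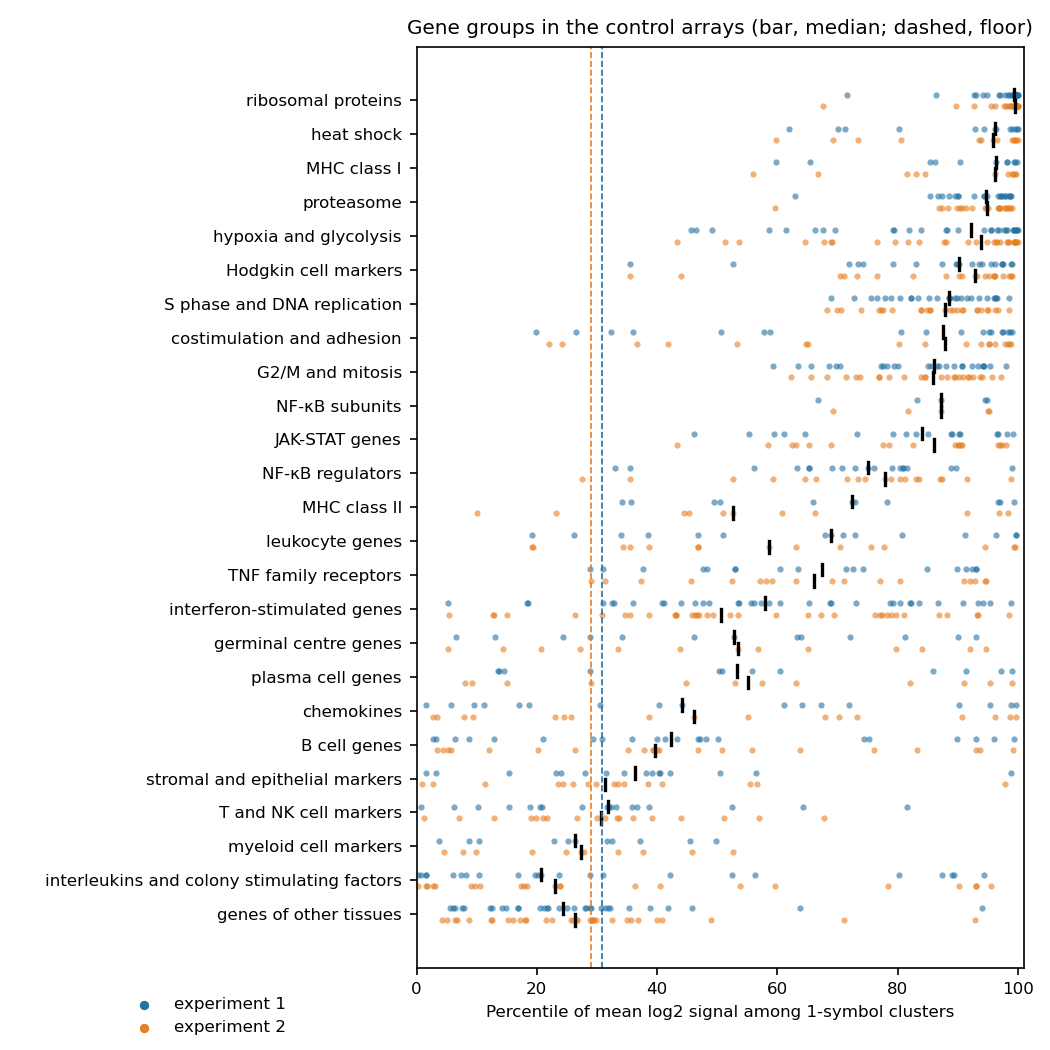
Percentile of every measured member of the gene lists in experiments 1 and 2, with points for genes and a mark for the median of each list. Ribosomal, class I, heat shock and hypoxia lists sit near the top and the myeloid, interleukin and other-tissue lists below 30.

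The 5 NF-κB subunits were all above the floor in both experiments, against 12573 of 18417 genes in all. NFKB1, the precursor of p50, had signals of 11.07, 11.19 and 11.31 in experiment 1 and 11.17, 11.30 and 11.34 in experiment 2, at ranks 991 and 927 (percentiles 94.9 and 95.2), and REL followed at ranks 1081 and 980. NFKB2, the precursor of p52, followed at 87.2 in both experiments, RELA at 83.2 and 81.7, and RELB at 66.7 and 69.2. This order of array signal was the same in both experiments. Of 19 measured regulators 18 were above the floor, with NFKBIA, the inhibitor IκBα, at 99.1 and 98.9, the deubiquitinase TNFAIP3 (A20) at 80.4 and 83.6, and NFKBIZ, an atypical nuclear member of the IκB family, at 33.0 and 27.6.

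Promoters of 3 of these genes are printed because they hold a κB motif, the sequence that NF-κB dimers bind, and belong to the profile described: a chemokine and a cytokine subunit that mark Hodgkin cells, and the inhibitor IκBα. Each is the RefSeq promoter of GRCh38.p14, from 250 bases before to 50 bases after the gene's start, with the match to the κB consensus in capitals on either strand. The CCL22 promoter lies at chr16:57358533-57358832 (plus strand), that of EBI3, a subunit of IL-27 and IL-35, at chr19:4229273-4229572 (plus strand), and that of NFKBIA at chr14:35404700-35404999 (minus strand, printed 5′ to 3′ along the gene). The matches begin 186, 214 and 81 bases before the start.
CCL22: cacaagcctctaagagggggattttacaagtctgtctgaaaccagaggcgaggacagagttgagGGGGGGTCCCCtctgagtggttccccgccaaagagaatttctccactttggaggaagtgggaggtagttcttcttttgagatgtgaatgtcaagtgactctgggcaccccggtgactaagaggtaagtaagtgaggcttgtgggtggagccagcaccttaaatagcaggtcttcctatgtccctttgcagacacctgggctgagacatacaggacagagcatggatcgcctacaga
EBI3: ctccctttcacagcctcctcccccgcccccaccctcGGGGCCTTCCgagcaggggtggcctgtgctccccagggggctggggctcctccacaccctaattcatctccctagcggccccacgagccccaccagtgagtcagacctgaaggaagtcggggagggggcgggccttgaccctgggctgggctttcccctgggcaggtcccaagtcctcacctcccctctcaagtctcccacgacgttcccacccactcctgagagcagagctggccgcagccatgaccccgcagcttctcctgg
NFKBIA: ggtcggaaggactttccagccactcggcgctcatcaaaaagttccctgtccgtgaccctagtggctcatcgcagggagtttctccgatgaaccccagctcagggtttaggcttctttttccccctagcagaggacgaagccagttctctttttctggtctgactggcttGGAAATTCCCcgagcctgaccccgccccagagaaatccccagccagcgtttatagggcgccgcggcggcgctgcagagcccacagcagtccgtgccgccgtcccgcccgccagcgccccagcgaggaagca
A κB match was present in 6 of the 14 Hodgkin cell markers whose promoter was in the table (42.9%), against 16.1% of the 14239 ranked genes with a promoter in the table. The markers had a mean of 1.71 promoters each, against 1.41 over all genes, which gives them more sequence for a match. By mean percentile over both experiments, a κB match was present in 14.2% of the 500 highest of the 14239 genes and in 9.6% of the 500 lowest. The 500 highest differed from the 500 lowest more in other letters: the GC box GGGCGG (either strand) was found in 78.0% and 29.0% (65.9% of all), and the ETS motif CCGGAAG (either strand) in 25.6% and 7.0% (16.8% of all). TATA-box letters (TATAAA, either strand) were found in 12.8% of the highest and 27.8% of the lowest. These are matches of letters in a window and say nothing of binding.

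Genes of secreted signals ranged from the top of the order to below the floor. LTA, which encodes lymphotoxin alpha, had signals of 13.10, 13.14 and 13.29 in experiment 1 and 13.32, 13.39 and 13.42 in experiment 2, at the percentiles 99.8 and 99.9, and TNF lay at 97.4 and 96.4. Of 17 chemokines 10 were above the floor in both experiments, against 12573 of 18417 genes in all. CCL2, which attracts monocytes, stood at 99.6 in both, the CXCR3 ligand CXCL10 at 98.8 and 98.7, and CCL5 at 95.3 and 96.2, whereas CXCL8 (30.6 and 25.7), CCL20 (9.5 and 7.9) and CXCL9 (5.8 and 2.8) were below the floor. Interleukins and colony stimulating factors had a median percentile of 20.8 and 23.0, with 9 of 23 above the floor. CSF1, the macrophage growth factor, lay at 94.3 and 95.4, IL6 at 89.4 and 92.9, IL13 at 52.5 and 53.7, and IL10 at 16.9 and 18.3, below the floor.

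Lists of class I presentation, costimulation and JAK-STAT signalling had high medians, while the 11 class II genes had medians of 72.4 and 52.6. Of these 11, 9 were above the floor in both experiments, against 12573 of 18417 genes in all. The 11 measured class I genes had median percentiles of 96.4 and 96.2 (the classical HLA class I genes have no cluster with 1 symbol here), with the peptide-loading protein TAPBP at 99.8 and 99.5. The 18 costimulation and adhesion genes had medians of 87.6 and 87.9, with the adhesion molecule ICAM1 at 98.7 and 97.8 and the T cell costimulator CD86 at 98.3 and 98.4. In the JAK-STAT list all 18 measured genes were above the floor (medians 84.0 and 86.0): the kinase PIM2 stood at 99.1 and 98.1, STAT6 at 98.2 and 97.3, STAT3 at 96.7 and 97.0 and the feedback inhibitor SOCS1 at 90.3 and 90.1. The next 5 lists were above the floor in full in both experiments, with medians of 99.3 and 99.4 for 27 ribosomal proteins, 96.2 and 95.8 for 13 heat shock genes, 92.2 and 93.9 for 30 genes of hypoxia and glycolysis, 88.5 and 87.9 for 27 genes of S phase, and 86.0 and 85.9 for 26 genes of G2/M and mitosis.

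Between the experiments 322 clusters shifted place, meaning that their percentiles on the 6 arrays of one experiment did not overlap with those of the other and that the mean differed by at least 10 points. Of these, 235 were lower in experiment 2 (1.21% of 19460) and 87 higher (0.447%). Non-overlap alone was common, at 6435 clusters (33.1%). HRH4, a histamine receptor, had the largest drop in percentile: its log2 signal was 7.57, 7.98 and 8.33 in experiment 1 (percentile 55.5) and 4.56, 4.68 and 4.84 in experiment 2 (4.72, below the floor). ARHGDIB, a gene of the leukocyte list, had percentiles of 91.2 and 58.5, with signals of 10.53 to 10.83 and 8.21 to 8.67. EVI2B, a leukocyte surface protein, had 73.1 and 32.3. In the opposite direction SPP1, which encodes the secreted protein osteopontin, had 29.4 and 64.8 (signals of 6.12 to 6.66 and 8.58 to 9.09), and SLC7A11, the cystine transporter, 32.8 and 50.4.

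Lower places in experiment 2 were found in several members of the immune lists. In the class II list 4 of 11 measured genes shifted downward, against 228 of 18417 genes in all, and 10 of 11 had a lower percentile. HLA-DMB, which helps load peptide, had percentiles of 78.2 and 50.9, HLA-DQA1 72.4 and 52.6, HLA-DQB1 35.6 and 10.0 and the protease CTSS 34.1 and 23.1. HLA-DPA1, in contrast, stayed high at 99.4 and 98.3. Among interferon-stimulated genes 5 of 36 shifted downward and 30 had a lower percentile, against 8803 of 18417 genes in all with a lower percentile. Without replicate 2 of experiment 1, or without the array that stood apart, 3 of the 36 did. In the leukocyte list 2 of 15 did, ARHGDIB and LAPTM5 (70.9 and 46.9), and among T and NK markers CD4 (81.6 and 56.9). Culture, scan batch and normalization go with the experiment and cannot be told apart.

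No difference between the 2 non-targeting sequences passed the limma test. Taking both experiments with each replicate as a block, 0 of 15082 clusters differed between sequence 2 and sequence 1 (0.0%, limma, adjusted p below 0.05 and at least 10% difference), and 285 had an unadjusted p below 0.05. Without replicate 2 of experiment 1, which holds the array that stood apart, 0 of 15768 passed and 934 had an unadjusted p below 0.05 (limma). The methods' t-test, run without moderation after the mean of each replicate was subtracted, called 11 clusters. Its degrees of freedom were not lowered for that subtraction, and its median SE was 0.0320, against 0.0445 in limma. The 11 calls are therefore too lenient to show a difference between the sequences. At the median cluster the 95% interval of a difference reached 0.0999 to either side on the log2 scale. The smallest p-values belonged to VXN, a neuronal protein, with sequence 2 higher by 0.20 on the log2 scale, FAM163A (0.23), CCDC127 (-0.14), ZNF649 (-0.21) and SNORA22 (0.18), each with a limma adjusted p of 1.00 and all chosen after their values were seen. Within experiment 1 and within experiment 2 the count was 0 as well (155 of 14621 and 807 of 16059 at an unadjusted p below 0.05, limma), and 0 clusters had a sequence effect that differed between experiments (356 at an unadjusted p below 0.05, limma). Genes that sense foreign RNA, listed as innate RNA sensors, had a median difference (sequence 2 minus sequence 1) of 0.02, against 0.002 over all genes. Interferon-stimulated genes had 0.06, and 2 of the 33 tested had an unadjusted p below 0.05 (limma), against 262 of 14262 genes in all.

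Variation between the 6 arrays was small for a typical gene. The median SD was 0.0998 on the log2 scale over the 14621 clusters that passed the low-value filter in experiment 1 and 0.0774 over 16059 in experiment 2, and 9 and 5 clusters had an SD above 0.5. In experiment 1 the median SD was 0.0850 for single arrays within pairs and 0.0731 between replicate means. In experiment 2 it was 0.0551 within pairs and 0.0624 between replicate means. A replicate mean averages 2 arrays, which lowers its spread, so the 2 kinds of SD are not directly comparable. Each replicate of experiment 1 was scanned in a batch of its own, so replicate and scan batch cannot be told apart there. In experiment 2 replicates 1 and 2 shared a scan batch and replicate 3 had its own.

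Of the 44 gene lists, that of interferon-stimulated genes, the antiviral genes that cells switch on in response to interferons, had the largest share of members at an unadjusted p below 0.05 between the replicates of experiment 1. It held for 25 of the 33 tested (limma F-test over the 3 replicates) against 5.46% of all 14621 clusters, and 31 of the 33 were highest in replicate 2, against 5597 of 13832 genes in all. No cluster passed the adjusted threshold in this experiment (0 of 14621, limma, 798 at an unadjusted p below 0.05). The intensity-trend setting of limma called 166, among them 20 of the 33. MX1, a GTPase that blocks viral replication, had log2 signals of 8.58 and 8.85 in replicate 1, 9.60 and 9.86 in replicate 2 and 8.90 and 8.95 in replicate 3, where each pair gives sequence 1 and then sequence 2. Both arrays of replicate 2 thus lay above the other 4, with a range of replicate means of 1.02 and an adjusted p of 0.208 (limma). IFIT1, which binds viral RNA, gave 6.07 and 6.66, 7.38 and 7.83, and 7.19 and 7.00 in the same order (range 1.24, limma adjusted p = 0.474), and its replicate 2 again lay above the others. IFIT3, a partner of IFIT1, had a range of 1.00 and OAS2, an enzyme that activates RNase L, one of 0.73.

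The array that stood apart belongs to replicate 2, and on it IFIT1 was 0.97 and MX1 0.88 higher than the mean of the other 5 arrays. Without it 25 of the 33 genes still had an unadjusted p below 0.05 (limma) and 0 passed the adjusted threshold, and without replicate 3 the count past the adjusted threshold was 20. That fit without replicate 3 called 82 of 13773 genes in all. Hypoxia and glycolysis genes in experiment 1 had their highest replicate mean in replicate 1 for 28 of 30, against 4356 of 13832 genes in all. This rested mainly on 1 array. The list's median deviation in replicate 1 was 0.008 for sequence 1 and 0.17 for sequence 2, and it was 0.03 for sequence 1 of replicate 2. Of the 30, 5 had an unadjusted p below 0.05 (limma), against 737 of the 13832 genes.

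Promoters of 2 of these genes are shown with the interferon element searched, TTTC repeated after any 2 bases, on either strand and in capitals. The element was chosen after the values were seen. It was found in 22 of 29 interferon-stimulated genes with a promoter in the table (75.9%), against 4.12% of all 14239 ranked genes with a promoter there. That of IFIT1 lies at chr10:89392373-89392672 and that of IFIT3, the first of 2 in the table, at chr10:89327747-89328046 (both plus strand, RefSeq, GRCh38.p14).
IFIT1: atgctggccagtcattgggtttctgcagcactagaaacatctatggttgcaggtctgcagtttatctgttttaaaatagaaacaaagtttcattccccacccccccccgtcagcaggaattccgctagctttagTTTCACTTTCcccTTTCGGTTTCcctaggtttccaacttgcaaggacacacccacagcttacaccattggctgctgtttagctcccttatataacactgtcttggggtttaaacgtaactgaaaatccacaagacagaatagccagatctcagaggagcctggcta
IFIT3: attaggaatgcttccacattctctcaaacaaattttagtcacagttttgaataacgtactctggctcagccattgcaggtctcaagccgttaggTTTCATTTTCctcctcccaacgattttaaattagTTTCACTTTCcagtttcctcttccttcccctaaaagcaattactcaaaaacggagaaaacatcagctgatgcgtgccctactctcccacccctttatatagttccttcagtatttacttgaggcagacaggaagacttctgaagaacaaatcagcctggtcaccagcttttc
Each holds the element at 2 places, which begin 116 and 103 bases before the start in IFIT1 and 156 and 122 bases before it in IFIT3.

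**Figure D4:**
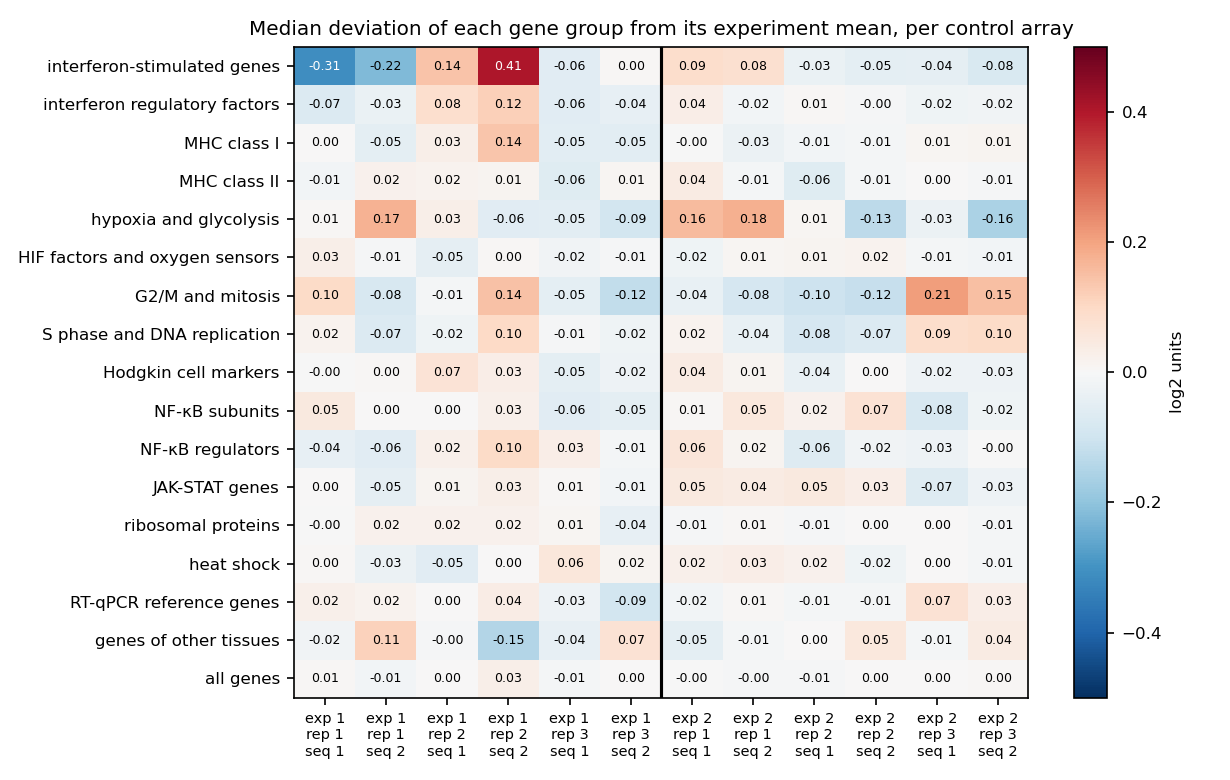
Median deviation of each gene list from its own mean over the 6 arrays (log2 units), drawn as colour and number for every control array (columns) of experiments 1 and 2. Interferon-stimulated genes are highest on the replicate 2 arrays of experiment 1 (0.14 and 0.41), hypoxia and glycolysis genes on the replicate 1 arrays of experiment 2 (0.16 and 0.18) and G2/M genes on its replicate 3 arrays (0.21 and 0.15).

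In experiment 2 the replicates differed in 881 of 16059 clusters (5.49%, limma F-test, adjusted p below 0.05), with a median range of replicate means of 0.36, and 7 clusters ranged at least 2-fold. Of the 881, 447 were highest in replicate 1, 71 in replicate 2 and 363 in replicate 3. This count depended on the settings, from 2529 with an intensity trend to 0 when no low-value filter was applied (4264 at an unadjusted p below 0.05, limma), and on single replicates, from 6 without replicate 3 to 1831 without replicate 2. Between replicates 1 and 2, within 1 scan batch, 29 clusters differed (0.181%), 28 of them lower in replicate 2.

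The gene lists differed in which replicate was highest. Of 30 hypoxia and glycolysis genes 10 passed the limma test, against 817 of 15194 genes in all, and 26 were highest in replicate 1, against 4824 of the 15194. The 10 became 1 without replicate 1, 17 without replicate 2 and 1 without replicate 3. Without the low-value filter 0 of all 18417 genes passed, while 18 of the 30 had an unadjusted p below 0.05 (limma). HILPDA, a lipid droplet protein induced by low oxygen, had log2 signals of 12.22 and 12.26 in replicate 1, 11.61 and 10.84 in replicate 2 and 11.16 and 10.50 in replicate 3, a range of replicate means of 1.41 (2.65-fold, limma adjusted p = 0.0206). Both arrays of replicate 1 lay above the other 4, which overlapped between replicates 2 and 3. PFKFB3, which makes the activator of glycolytic phosphofructokinase, gave 9.57 and 9.36, 8.80 and 8.35, and 8.46 and 8.24 (range 1.11, limma adjusted p = 0.00920). The glucose transporter SLC2A3, whose probes may also read its close copy SLC2A14, had a range of 0.89, the hexokinase HK2 of 0.74, the mTORC1 inhibitor DDIT4 of 1.12 and the growth factor VEGFA of 0.59. Within the batch 3 of the 30 passed, against 27 of 15194 genes in all. The 3 were PFKFB3 (replicate 2 minus replicate 1 of -0.89 ± 0.07, SE), HK2 (-0.54 ± 0.05) and ANKRD37 (-0.70 ± 0.09), each with 2 arrays a replicate. GAPDH, in the same list, did not pass, with a range of 0.03.

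Other genes with large ranges were also highest in replicate 1. INSIG2, which retains the sterol sensor in the endoplasmic reticulum, had replicate means of 9.62, 8.64 and 8.18 (range 1.44, limma adjusted p = 0.0206), FAM13A 8.91, 7.75 and 7.61, and the neuropilin gene NRP2 10.39, 10.09 and 9.43. CCL22 had 10.93, 10.55 and 10.47 and the JAK-STAT feedback gene CISH 10.96, 10.64 and 10.28. In contrast the chemokine gene CXCL10 was highest in replicate 3, with 11.93, 12.31 and 12.60 (range 0.67, limma adjusted p = 0.0193).

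Promoters of 2 hypoxia genes are shown with the core of the hypoxia response element, ACGTG on either strand, in capitals, also chosen after the values were seen. ANKRD37 lies at chr4:185396591-185396890 and DDIT4 at chr10:72273674-72273973 (both plus strand, RefSeq, GRCh38.p14). The letters were found in 17 of the 25 list genes with a promoter in the table (68.0%). The share was 28.9% of all 14239 ranked genes with a promoter there and 9 of 20 ribosomal protein genes. The list genes had a mean of 1.64 promoters each, against 1.41 over all genes, which gives them more sequence for a match.
ANKRD37: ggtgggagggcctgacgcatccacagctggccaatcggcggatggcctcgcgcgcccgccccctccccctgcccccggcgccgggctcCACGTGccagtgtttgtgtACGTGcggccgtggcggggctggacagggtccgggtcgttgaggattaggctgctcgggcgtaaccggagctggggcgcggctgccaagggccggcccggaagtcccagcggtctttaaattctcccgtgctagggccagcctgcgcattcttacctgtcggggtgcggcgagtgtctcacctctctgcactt
DDIT4: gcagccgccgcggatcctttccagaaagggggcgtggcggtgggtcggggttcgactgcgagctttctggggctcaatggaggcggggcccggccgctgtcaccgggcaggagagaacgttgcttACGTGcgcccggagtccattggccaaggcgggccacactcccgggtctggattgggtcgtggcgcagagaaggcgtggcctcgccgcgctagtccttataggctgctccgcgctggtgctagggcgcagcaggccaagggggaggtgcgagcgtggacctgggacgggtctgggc
The matches begin 162 and 143 bases before the start in ANKRD37 and 125 bases before it in DDIT4.

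Cell cycle genes were highest in replicate 3. Of 26 genes of G2/M and mitosis 17 passed the limma test, against 817 of 15194 genes in all, and 24 were highest in replicate 3, against 5691 of the 15194. The 17 became 8 without replicate 1, 18 without replicate 2 and 0 without replicate 3, the replicate in which most of these genes were highest. Without the low-value filter 0 of all 18417 genes passed, while 24 of the 26 had an unadjusted p below 0.05 (limma). Within the batch of replicates 1 and 2 the count of the 26 that passed was 0 (6 at an unadjusted p below 0.05, limma). CCNB2, which encodes the mitotic cyclin B2, had log2 signals of 10.76 and 10.78 in replicate 1, 10.70 and 10.66 in replicate 2 and 11.20 and 11.16 in replicate 3, a range of 0.51 (limma adjusted p = 0.0164). CDK1, its kinase, gave 9.16 and 9.15, 9.06 and 8.94, and 9.46 and 9.37 (range 0.41, limma adjusted p = 0.0234). For both genes the arrays of replicate 3 lay above the other 4. The kinetochore genes NUF2 and NDC80 had ranges of 0.47 and 0.40 and the topoisomerase TOP2A one of 0.33, whereas the proliferation marker MKI67, with a range of 0.09, did not pass. S phase genes passed in 5 of 27, with 25 highest in replicate 3, and in 0 without replicate 1, without replicate 3 or without the filter. Replicate 3 was scanned apart, so culture and scan batch cannot be told apart for these genes.

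**Figure D5:**
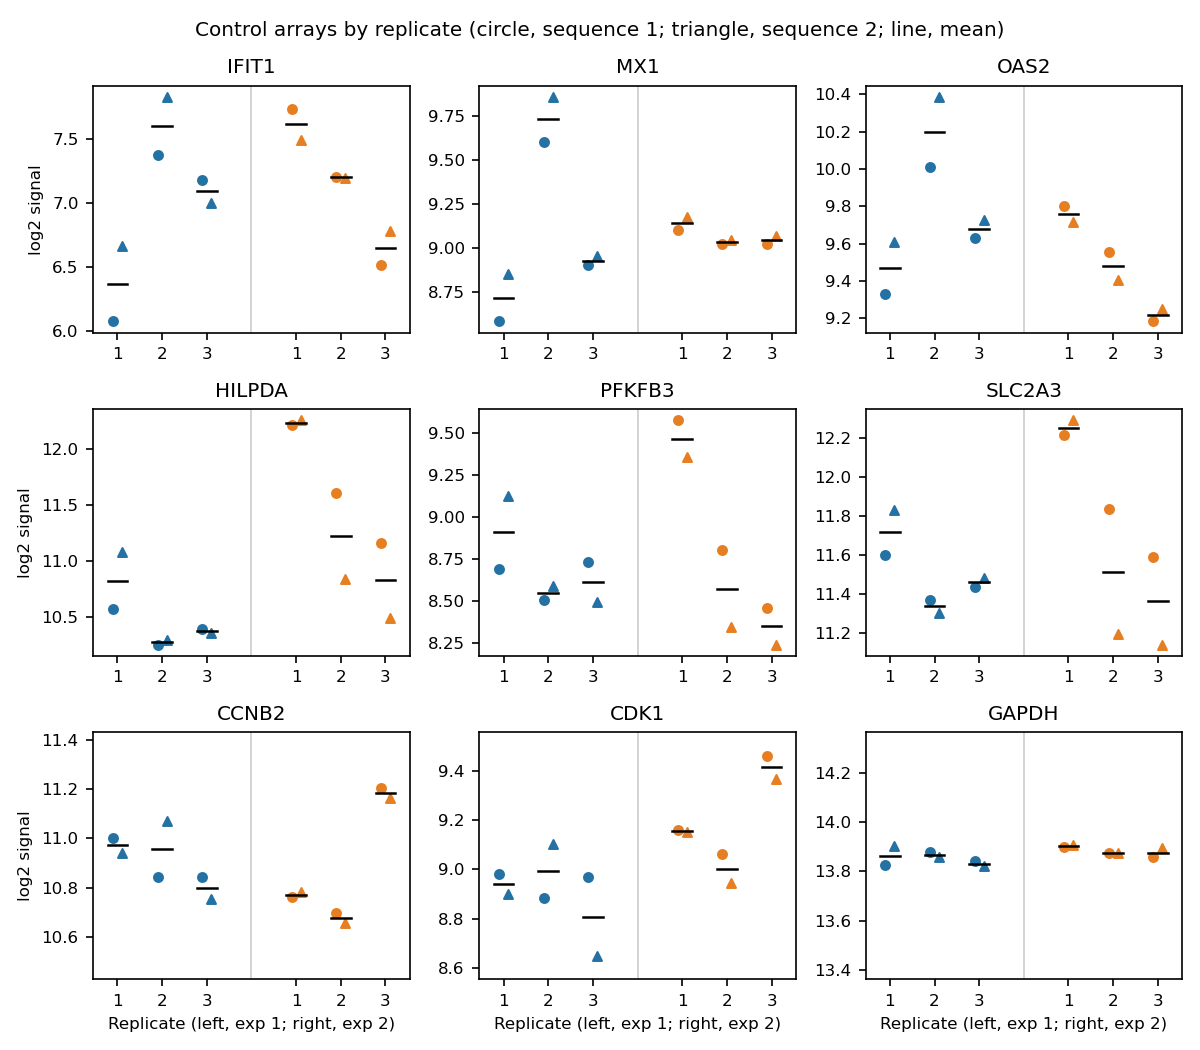
Log2 signal of 9 genes on the 12 control arrays, by replicate and experiment, with a point per array. MX1 is highest in replicate 2 of experiment 1, HILPDA and PFKFB3 in replicate 1 of experiment 2 and CCNB2 and CDK1 in its replicate 3, while GAPDH ranges by 0.04 and 0.03 between replicate means.

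Interferon-stimulated genes also differed in experiment 2, but with the highest replicate another one. Of 32 tested 7 passed the limma test, against 817 of 15194 genes in all, and 22 were highest in replicate 1, against 4824 of the 15194. The 7 became 3 without replicate 1, 13 without replicate 2, and 0 without replicate 3 or without the filter. IFIT1 gave 7.74 and 7.50 in replicate 1, 7.21 and 7.20 in replicate 2 and 6.51 and 6.78 in replicate 3, a range of 0.97 (limma adjusted p = 0.0199), and its replicates did not overlap. MX1, which had ranged by 1.02 in experiment 1, ranged by 0.10 here, and EPSTI1 was highest in replicate 3.

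The ranges of the clusters in the experiments were then set side by side. Across 14600 clusters tested in both, the Spearman correlation of the SD over 6 arrays was 0.231 and that of the range of replicate means 0.129, where clusters are not independent and share platform and signal level. The 500 clusters with the largest range in each experiment had 98 in common (19.6% of either list), where 500 of all 14600 clusters make up each list. Of the 853 clusters called in experiment 2 and tested in both, 129 (15.1%) had an unadjusted p below 0.05 in experiment 1 (limma), which is 16.3% of the 793 such clusters among the 14600. The small nucleolar RNA SNORA38B, which guides modification of ribosomal RNA, was among the most variable in both experiments: its log2 signals were 8.88 and 8.88, 9.47 and 9.55, and 8.02 and 8.25 in replicates 1, 2 and 3 of experiment 1 (range 1.37, limma adjusted p = 0.0766) and 8.61 and 8.98, 9.68 and 9.91, and 8.97 and 9.11 in experiment 2 (range 1.00, limma adjusted p = 0.00920). In both, replicate 2 lay above the other arrays. IFIT1, FAM13A, HILPDA and INSIG2 were also among the 98. Their ranges in experiment 1 were 1.24, 0.71, 0.55 and 0.37, and none of them passed there (limma adjusted p of 0.474, 0.703, 0.774 and 0.774).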

How the data were processed

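The deposited table holds log2 expression values that the authors computed with RMA (background correction, quantile normalization and probe summary) in the Bioconductor package oligo (version not stated). Total RNA with a RIN above 8.5 per the labels was used, 100 ng per array. The 12 arrays of control siRNA were taken from the titles. Clusters were named through GEO's platform annotation, with symbols updated through RefSeq (GRCh38.p14). Of 33297 clusters 19460 had 1 symbol, 1754 several and 12083 were not listed. Clustered histone genes (60 clusters) were not named. Means, ranks, percentiles and the floor were computed from the log2 values without further normalization.

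Tests used limma 3.58.1 in R 4.3.3 in place of the methods' t-test, which was run as an alternative. A cluster was left out where it lay below 6 on 50% or more of the arrays, and a call needed an adjusted p (Benjamini-Hochberg) below 0.05 with a difference of at least 10%. The methods name an adjustment for covariates without listing them. The siRNA sequences were compared with each replicate as a block, since the methods place both control samples within each biological replicate and its arrays share a scan batch. Whether those cultures were treated together is not stated. Deviations of same-numbered arrays had correlations of 0.378, 0.00995 and 0.00211 for replicates 1, 2 and 3 of experiment 1, and of 0.514, 0.344 and 0.652 for those of experiment 2. Differently numbered arrays had -0.370 to 0.267 in experiment 1 and -0.473 to -0.0154 in experiment 2. The value of 0.267 joined sequence 1 of replicate 3 to sequence 2 of replicate 2, so same-numbered arrays were not always the most alike in experiment 1. Replicates were compared by an F-test with the sequence as a term, on 2 arrays per replicate. The p-values cover the spread between arrays of these cultures. Their precision is limited by how few arrays there are.

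Genes named were the 20 highest clusters, members of 44 gene lists, the 10 called clusters with the largest range between replicates and the 10 largest shifts of percentile each way. The members and lists were chosen with earlier results of these data known. Single values were not weighted by signal over background, which RMA does not keep. Each alternative changed 1 choice at a time. Promoters on chromosome 8 were not searched. The fits were tested on simulated data.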

Additional observations from a re-analysis of the deposited data

Results flagged for a closer look

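In 3 of 158 groups of 6 control arrays (the named genes and list medians in each experiment), 1 array lay far from the other 5. The criterion was a gap to the nearest array that took an unusually large share of the group's whole range, which chance meets in about 1 in 20 groups. NRP2 had a log2 signal of 10.08 on the array of sequence 2 in replicate 1 of experiment 1, with a gap of 0.731 of the range. HSPA8 had 13.57 on the array of sequence 2 in replicate 3 of experiment 2, with a gap of 0.724 of the range. The PTMA cluster at rank 16 of experiment 2 had 13.65 on the array of sequence 1 in replicate 1, with a gap of 0.689 of the range.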

How the results depend on the processing

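The siRNA sequences gave 0 calls in limma under all alternatives over both experiments, and the methods' t-test called 11. Clusters at an unadjusted p below 0.05 (limma) numbered 285 in the main fit and 138 without the block of replicates (pairing). They numbered 660 with array weights and 934 of 15768 without replicate 2 of experiment 1, which holds the array that stood apart. In experiment 1 alone they numbered 155 in the main fit and 1338 of 14641 without replicate 2. Within experiment 1 the count was 0 to 2 when a replicate was left out (2 without replicate 3). Between replicates of experiment 1, against 0, there was 1 call without the sequence term, 0 to 94 calls without 1 replicate (94 without replicate 3), 166 with an intensity trend and 2 without the array of sequence 2 in replicate 2. Between replicates of experiment 2, against 881, there were 6 to 1831 calls without 1 replicate (6 without replicate 3), 0 without a filter on low values and 2529 with an intensity trend. The cause was not tested. Within 1 scan batch the 29 calls became 5 after further quantile normalization. The rank correlation was 0.981 over clusters above the floor in both experiments. Shifts of place numbered 35 at 20 percentile points and 2522 at 5 points. In experiment 2, 8251 clusters lay above a floor taken from genes of other tissues. The other alternatives kept each count within 1.5 times or, for rank agreement, within the spread between arrays. For the 10 clusters named for their range between replicates, 56 of 80 alternatives kept the call and 24 lost it, 14 of these without 1 replicate and 10 without the filter. The calls on list members were recomputed after the data were seen: without the filter the G2/M, S phase, hypoxia and interferon lists had 0 calls in experiment 2, and without replicate 3 they had 0, 0, 1 and 0. Without the filter 0 of all 18417 genes passed either. In that setting 24 of 26, 17 of 27, 18 of 30 and 20 of 36 members of these lists had an unadjusted p below 0.05 (limma). RMA values carry no detection call, so genes near the floor have no reliable order.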

Other observations

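Further lists were ranked in the same way, where 12573 of 18417 genes in all were above the floor in both experiments. The 22 proteasome genes were all above the floor in both experiments, with median percentiles of 94.6 and 94.8, and so were the 25 respiratory chain genes (92.5 and 92.0), of which the ATP synthase subunit ATP5F1B stood at 99.9 and 99.6 and UQCRH, a subunit of complex III, at 44.7 and 33.8. The 12 Polycomb PRC2 genes had medians of 81.9 and 84.8, with the subunit SUZ12 at 97.3 and 97.6 and the methyltransferase EZH2 at 89.9 and 91.5. Of the 9 measured apoptosis inhibitors BCL2L1 stood at 96.5 and 96.7 and CFLAR, which blocks caspase activation by death receptors, at 92.4 and 91.8, while XIAP lay at 53.5 and 55.4. BCL2 ranged between the replicates of experiment 2, with means of 9.72, 9.46 and 9.32 (limma adjusted p = 0.0312).

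Genes of the machinery that the siRNA uses were above the floor in both experiments in 13 of 13 cases, against 12573 of 18417 genes in all. AGO2, the slicing Argonaute, lay at 87.7 and 89.9 and DICER1 at 85.6 and 82.9. Among 12 innate RNA sensors 8 were above the floor in both experiments, a share like that of all genes. EIF2AK2, the kinase PKR, lay at 97.2 and 96.5 and RIGI at 82.1 and 78.9, whereas the endosomal receptors TLR7 (5.1 and 4.8) and TLR8 (4.9 and 5.4) were below the floor.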
